A study of Mus musculus with 2 samples.

Results

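Lrp6, Tcf7l1, Tcf7l2 and Axin2 stand at the receptor, in the nucleus and at the feedback end of the Wnt pathway. Their signals were compared between cultures of primary mouse osteoblasts, the cells that form bone, with and without the growth factor TGF-beta1. The 4 genes were found among 3757 probes by their RefSeq accession and gene name, with 1 probe each. These Wnt genes were selected on their intensities on the same 2 arrays, where each had exceeded background at least once, so intensities and ratios are given as a description, without a test. The medium of both cultures was alphaMEM, in which serum had been reduced to 0.2% to starve the cells. There was 1 untreated sample and 1 sample that had received 2 ng/ml TGF-beta1 over 24 h. The sources used here give neither the strain and age of the mice nor the number of animals behind each culture. RNA of each culture was labelled with Cy3 and read on an array of its own, so each value rests on 1 spot and has no replicate error. In bulk RNA, fewer cells of a type and less RNA per cell cannot be told apart.

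Wnt ligands bind a Frizzled receptor together with the co-receptor Lrp5 or Lrp6. The phosphorylated tail of the co-receptor then recruits Axin, the scaffold of the complex that marks beta-catenin for destruction. Beta-catenin that escapes destruction enters the nucleus and binds TCF/LEF factors, which repress target genes without it and activate them with it. Axin2 is both a scaffold of that complex and a widely used target gene of the pathway, so that it forms a negative feedback loop. In bone, Wnt signalling through Lrp5 and Lrp6 is known to favour osteoblast formation and bone mass. Tcf7l1 is known mainly as a repressor in this family, while Tcf7l2 can act as activator or repressor.

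Promoter windows from RefSeq (GRCm38.p6) were matched for 3 of the 4 genes, and they are shown because the factors of this family recognise a short sequence that can be looked for near their own start sites and that of the target gene Axin2. Each window runs from 250 bases before to 50 bases after an annotated start. Both strands were searched for the TCF core CAAAG and for CAGAC, the core of the CAGA box bound by the TGF-beta effectors of the Smad family, and matches are in capitals. A longer TCF motif, the core with AA, AT, TA or TT directly before it, was searched as well and so overlaps the core.
Axin2 window chr11:108920099-108920398, plus strand: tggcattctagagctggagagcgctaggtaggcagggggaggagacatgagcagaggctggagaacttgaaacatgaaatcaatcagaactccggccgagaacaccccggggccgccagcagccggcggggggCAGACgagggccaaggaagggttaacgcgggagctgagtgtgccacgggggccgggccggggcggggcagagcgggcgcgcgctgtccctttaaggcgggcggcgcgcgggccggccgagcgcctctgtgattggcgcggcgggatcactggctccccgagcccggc
Tcf7l1 window chr6:72788996-72789295, minus strand: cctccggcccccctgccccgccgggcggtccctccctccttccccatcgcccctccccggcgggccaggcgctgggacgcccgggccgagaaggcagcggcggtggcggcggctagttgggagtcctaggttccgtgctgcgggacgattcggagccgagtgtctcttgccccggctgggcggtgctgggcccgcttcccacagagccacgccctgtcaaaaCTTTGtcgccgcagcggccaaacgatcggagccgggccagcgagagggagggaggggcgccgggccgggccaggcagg
Tcf7l2 window chr19:55741560-55741859, plus strand: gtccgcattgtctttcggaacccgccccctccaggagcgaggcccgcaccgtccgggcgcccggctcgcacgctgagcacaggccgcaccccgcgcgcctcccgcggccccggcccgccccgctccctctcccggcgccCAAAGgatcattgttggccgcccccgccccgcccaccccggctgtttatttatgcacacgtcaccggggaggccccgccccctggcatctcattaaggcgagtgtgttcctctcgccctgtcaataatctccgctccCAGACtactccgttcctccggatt
Tcf7l2 window chr19:55895071-55895370, plus strand: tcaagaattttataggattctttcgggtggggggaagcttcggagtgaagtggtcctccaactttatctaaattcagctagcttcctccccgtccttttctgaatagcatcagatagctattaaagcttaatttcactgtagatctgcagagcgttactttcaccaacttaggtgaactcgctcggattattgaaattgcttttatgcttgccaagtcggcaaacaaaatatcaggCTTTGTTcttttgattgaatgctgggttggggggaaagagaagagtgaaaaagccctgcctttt
The Axin2 window held 0 TCF cores and 1 CAGAC. The Tcf7l1 window held 1 TCF core, read here on the opposite strand. The window at the first Tcf7l2 start held 1 TCF core and 1 CAGAC, and the window at the second start held 1 TCF core, which was part of the longer motif. Of 32851 windows of this length, 53.9% held the TCF core, 16.9% the longer motif and 49.6% CAGAC. Matches of this kind are therefore common in such windows and describe the letters only. The GC content was 70.0% for Axin2, 75.3% for Tcf7l1, 70.0% for the first Tcf7l2 window and 42.0% for the second.

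The deposited intensities had already been put through the authors' normalization named global. After it the arrays were alike in overall signal, and whether they were alike before it cannot be told. The summed intensity was 427889 untreated and 431093 treated, and 995 of 3757 probes (26.5%) were detected on at least 1 array. A probe counted as detected where it exceeded 87.4, the signal of the brightest lambda phage control spot in the authors' workbook, called the threshold below. For the 795 genes detected on both arrays, the median log2 ratio of treated over untreated intensity was 0.03 with an SD of 0.44. The log2 ratios of the 8 lambda spots spread with an SD of 0.20, a rough scale for dim spots and not the error of any gene. All 5 osteoblast markers on the array (Bglap, Alpl, Ibsp, Col1a2 and Sparc) were detected on at least 1 array, with a summed intensity of 3300 untreated and 2775 treated. Among them Ibsp had 240 and 47.9, so it was under the threshold after treatment, and Sparc had a log2 ratio of -0.58. Sparc lay in block D4, whose low ratios are described below. With the adjustments for array position given there, Sparc became 0.04 (block median), 0.01 (neighbours), -0.05 (surface) and -0.56 (signal shift). Ibsp, in another block, stayed between -2.39 and -2.19 under these. All 4 skeletal muscle markers on the array were also detected on at least 1 array, with a summed intensity of 1764 untreated and 1455 treated. The part of either marker list in the results below was not tested. Macrophage, adipocyte and chondrocyte markers had 0 of 1, 0 of 2 and 0 of 1 probes detected.

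Lrp6, the Wnt co-receptor, was higher on the treated array and had the largest ratio of the 4 genes in the deposited values and the 6 other normalizations. Under 4 of 5 position adjustments the ratio of Tcf7l2, given below, was larger. The intensity of Lrp6 was 315 untreated and 589 treated, which is 3.61 and 6.74 times the threshold. The treated culture was thus 1.87-fold higher, a log2 ratio of 0.90. Of the 795 genes detected on both arrays, 7.17% were at least 1.5-fold higher and 1.51% at least 2-fold higher. Lrp6 passed the first of these sizes and not the second, and it ranked 17 from the highest of the 795.

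Close relatives of Lrp6 lay beside it in the same row of the array, in block H2, with lower signals. Lrp5, the other Wnt co-receptor of bone, occupied the neighbouring spot with 36.5 untreated and 37.8 treated, under the threshold on both arrays. Lrp1, an endocytic receptor of the LDL receptor family, stood next to Lrp5 with 105 untreated and 67.4 treated. It was detected without TGF-beta1 only, and its treated value was at least 1.20-fold lower. The spot on the other side of Lrp6, for Lrrfip1, had 36.9 and 36.7, also under the threshold. At these signals a difference in Lrp5 or Lrrfip1 was not detectable. Within block H2, Lrp6 had the highest log2 ratio of the 16 detected spots. Those 16 spots ranged from -0.79 to 0.90 with a median of 0.36, so bright spots of this block leaned towards higher values. Relative to them Lrp6 stood at 0.54, or 1.45-fold, its lowest value under any setting tried.

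**Figure D1:**
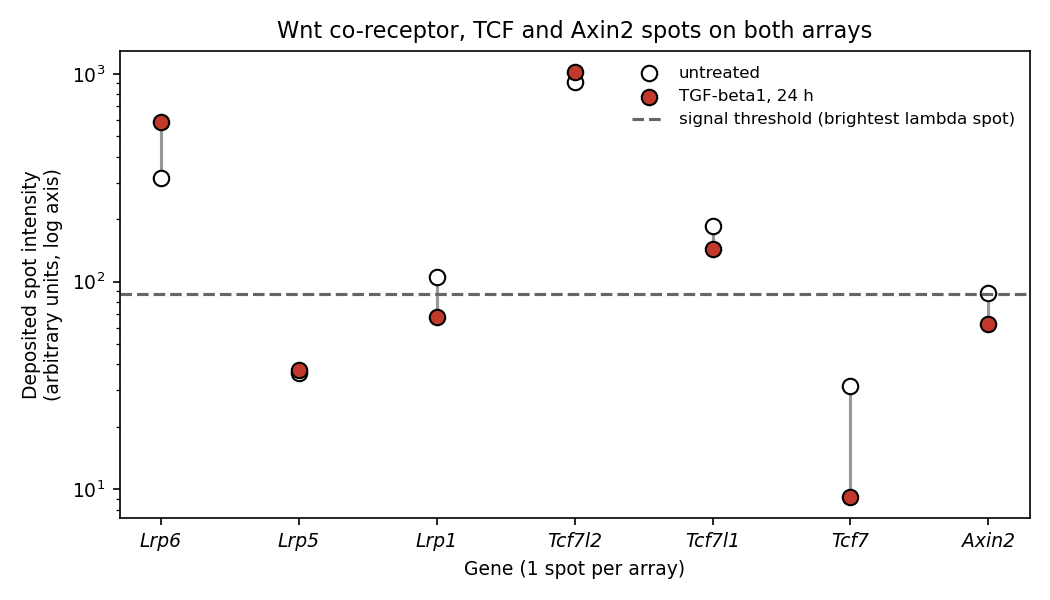
Deposited spot intensity (log axis) of each Wnt co-receptor, TCF and Axin2 spot and of the relatives on the same array rows, untreated (open) and after TGF-beta1 (red), with the signal threshold of 87.4 dashed; each point is 1 spot. Lrp6 goes from 315 to 589, Lrp5 stays near 37 and under the threshold, Tcf7l2 lies far over the threshold on both arrays, and Axin2 touches the threshold on the untreated array only.

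Tcf7l2, a TCF factor, had a strong signal on both arrays. Its intensity was 910 untreated and 1021 treated, 10.4 and 11.7 times the threshold. The treated value was 1.12-fold higher, a log2 ratio of 0.17, and 35.6% of the 795 genes had a ratio at least as high.

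Tcf7l1, its close relative, had a lower signal with TGF-beta1. Its intensity was 185 untreated and 143 treated, 2.12 and 1.64 times the threshold. The treated value was 1.29-fold lower, a log2 ratio of -0.37, and 16.6% of the 795 genes had a ratio at least as low. Tcf7l1 did not reach 1.5-fold, which 8.18% of the 795 genes did in the lower direction. Tcf7, the family member named for T cells, had 31.6 untreated and 9.24 treated and stayed under the threshold. Tcf7l1 and Tcf7l2 were formerly called Tcf3 and Tcf4, names also used for unrelated E-box factors. The accessions and the written-out names beside the spots are those of the TCF7-like genes.

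The spots of Tcf7, Tcf7l1 and Tcf7l2 lay side by side in 1 row of block D4, which had the third lowest median log2 ratio of the 48 blocks. The median over its 79 probes was -0.73. Probes of the block under the threshold on both arrays had a median of -0.85, and the 20 detected on at least 1 array had a median of -0.38. Among those 20, Tcf7l2 ranked 4 and Tcf7l1 ranked 10 from the highest. Tcf7l2 was therefore among the higher ratios of these 20 spots, and Tcf7l1 was in their middle. Both lay above the median over the 79 probes of the block.

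How the block was taken into account decided the direction of Tcf7l1. When each block's median was set to the median of all probes, the log2 ratio of Tcf7l1 became 0.25 and that of Tcf7l2 became 0.79, or 1.73-fold higher. With the median of the neighbouring spots in its place, they became 0.70 and 0.89, and with a smooth surface over the array 0.17 and 0.80. With the median of only the detected spots of the block, they became 0.0029 and 0.54. Those spots included some detected without TGF-beta1 only, such as Syngr1 at -2.31 and Tecta at -1.09. The low ratios of such spots partly follow from the filter and lower that median. The dim spots of D4 had a median signal difference of -14.2 intensity units, treated minus untreated. When such a difference, relative to that of all dim spots, was removed as a fixed amount of signal, Tcf7l1 stayed lower at -0.27 and Tcf7l2 stayed at 0.18. The ratio of Tcf7l2 was above 1 under each of these 5 adjustments and that of Tcf7l1 under 4 of them. Which adjustment is right was not tested.

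**Figure D2:**
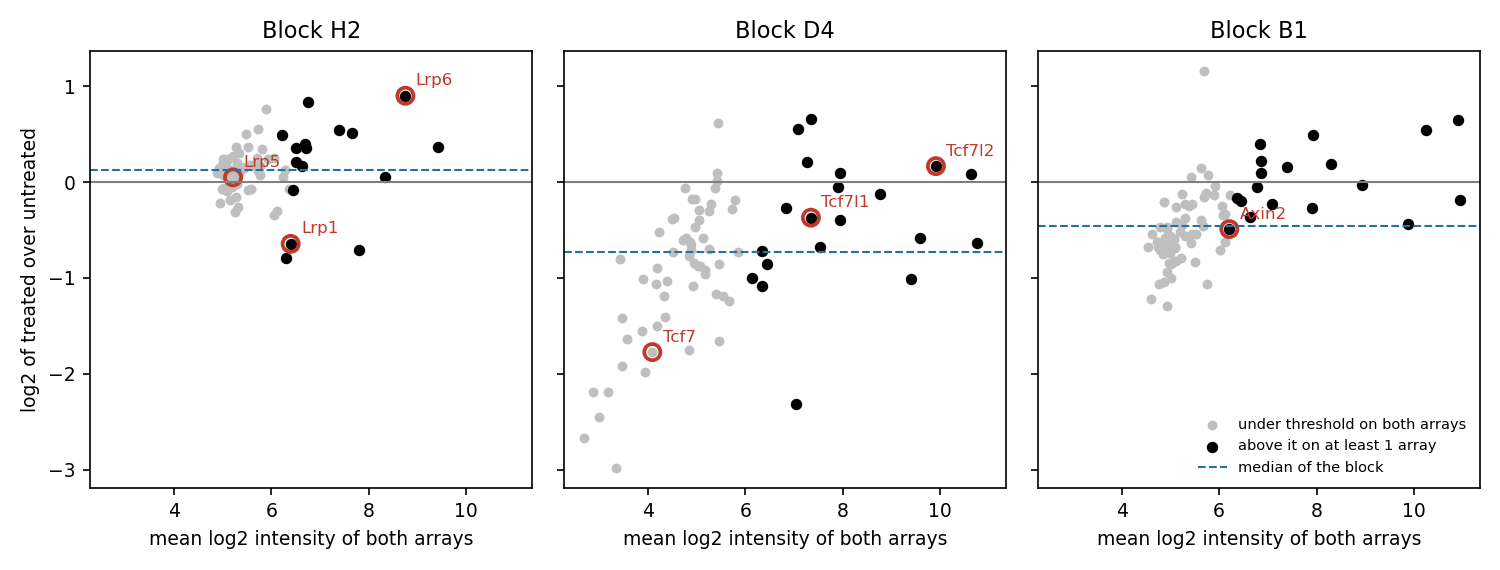
log2 ratio of treated over untreated against the mean log2 intensity of both arrays for every probe of blocks H2, D4 and B1, grey where under the threshold on both arrays and black otherwise, with the block's median dashed. In D4 the dim probes lie lowest (median -0.85) and Tcf7l2 and Tcf7l1 lie above the block's median of -0.73, in H2 Lrp6 is highest of the black points, and in B1 Axin2 is lowest of them.

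The spots of the 2 TCF factors were neighbours in 1 block, so a division of a whole array or a block median cannot change the difference between their log2 ratios. In the deposited values the log2 ratio of Tcf7l2 was 0.54 above that of Tcf7l1, a 1.45-fold difference between the ratios. Where a setting could change it, it was 0.39 with quantile normalization, 0.38 with loess, 0.38 with the offset, 0.45 with the signal shift and 0.63 with the surface. It fell to its lowest, 0.19, relative to the neighbouring spots, and Tcf7l2 was above in each. Its size was not unusual for neighbouring spots. Of 176 pairs of adjacent spots, each detected on both arrays, 26.7% differed by at least as much, and the median difference was 0.33.

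Axin2, the feedback scaffold and target gene, gave a signal at the limit of detection. Its intensity was 87.7 untreated, 0.302 units above the threshold, and 62.4 treated, below it. The measured log2 ratio was -0.49. The dimmest detected spot of the treated array had 87.6, nearly the same as untreated Axin2, so no fold could be bounded. In block B1, with a median log2 ratio of -0.46, Axin2 was the lowest of 18 detected spots. It counted among them through its untreated signal only, which favours a low rank. Spots of the block under the threshold on both arrays had a median of -0.56. The 4 settings that used all or dim spots of the block, its neighbours or a surface moved Axin2 to between -0.27 and -0.03, and the median of the detected spots of the block left it at -0.46. The spot beside it for Casp9, under the threshold on both arrays, had a log2 ratio of -0.71, and that for Chrna4, a bright one, had -0.03. A difference in Axin2 was not detectable at this signal.

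**Figure D3:**
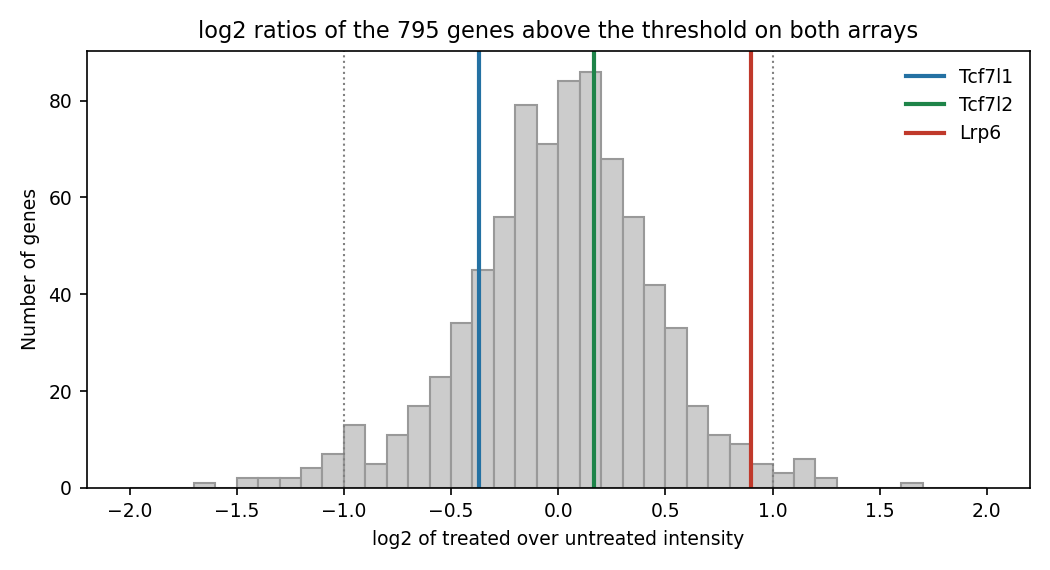
Histogram of the log2 ratios of the 795 genes detected on both arrays, in bins of 0.1, with lines at Tcf7l1 (-0.37), Tcf7l2 (0.17) and Lrp6 (0.90) and dotted lines at 2-fold. Lrp6 lies in the upper tail just under 2-fold, while both TCF factors lie in the body of the distribution.

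**Figure D4:**
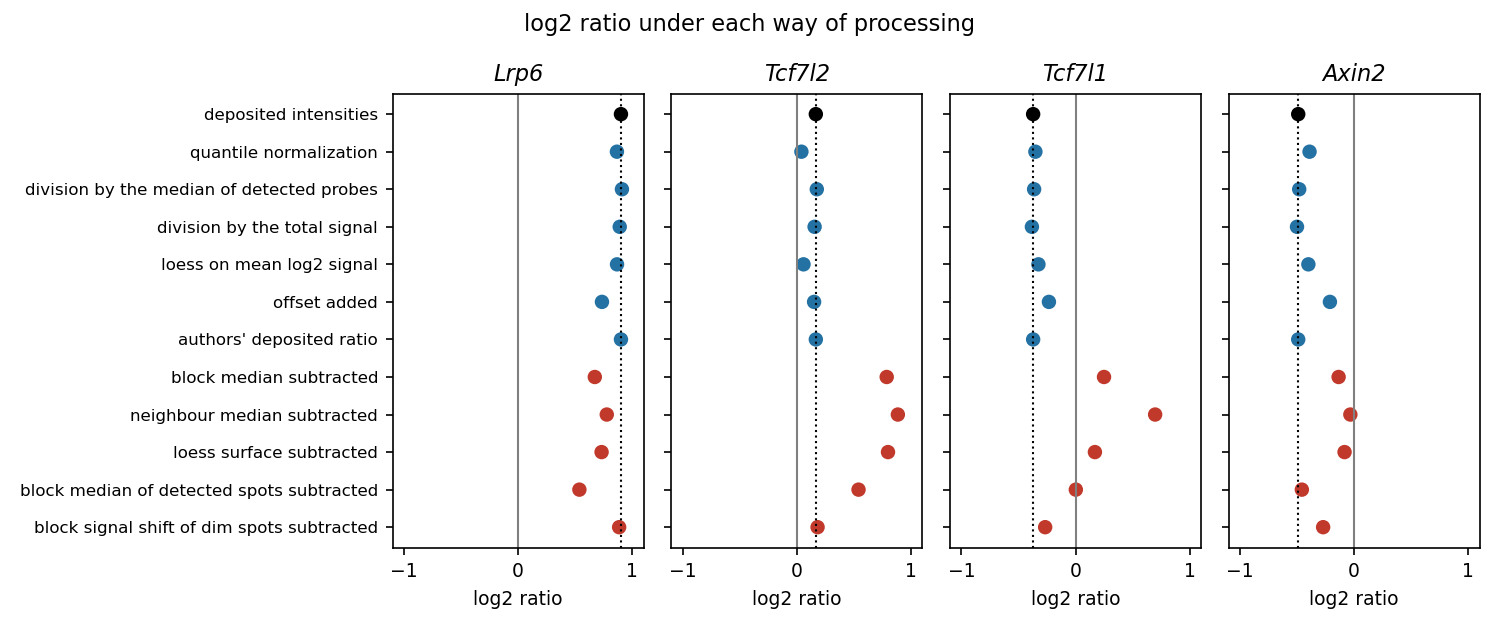
log2 ratio of each gene with the deposited intensities (black), under 6 other normalizations (blue) and under 5 position adjustments (red), with a dotted line at the deposited value. Lrp6 stays between 0.54 and 0.91, and Tcf7l2 lies between 0.04 and 0.89. Tcf7l1 crosses 0 under 4 position adjustments, by as little as 0.0029, and Axin2 stays between -0.50 and -0.03.

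Of the 3 genes detected on both arrays, 1 was at least 1.5-fold higher, 0 were at least 1.5-fold lower and 0 passed 2-fold in either direction. Over all 795 genes, 2.26% were at least 2-fold lower. With the deposited values and the 6 other normalizations, Lrp6 ranked between 16 and 19 from the highest, and under the 5 position adjustments between 19 and 70. Tcf7l2 ranked 283 with the deposited values, 391 with loess and 409 with quantile normalization. It ranked between 26 and 66 under the 4 position adjustments that moved it. Under those 4 adjustments Tcf7l2 ranked above Lrp6.

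Other Wnt genes on the same arrays went both ways. The 6 lists of ligands, receptors, inhibitors, transducers, nuclear factors and targets held 146 genes, of which 44 were on the array and 14 (31.8%) were detected on at least 1 array. Of these 14, with the 4 genes above included, 6 had a ratio over 1 and 8 under 1, beside 49.6% and 50.4% of all 995 such probes. Their median log2 ratio was -0.12 beside -0.01 for all. Of the 13 detected on both arrays, 1 passed 1.5-fold upward (Lrp6) and 1 downward (Hdac1), beside 7.17% and 8.18% of all 795 such genes. With so few genes these counts are near those shares. Past 2-fold there were 0, beside 1.51% upward and 2.26% downward of the 795. Under the adjustments by block median, neighbours or surface the split turned to 8 over 1 and 6 under 1, as Tcf7l1 and Apc2 changed sides.

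Among ligands, Wnt2b was the 1 of 3 above the threshold, with 176 untreated and 196 treated. Wnt5a, a ligand of the branch without beta-catenin, had 64.6 and 49.7 and Wnt8b 34.2 and 24.2. Of 5 receptor genes, Lgr5, which binds R-spondins and amplifies Wnt signals, was above the threshold besides Lrp6, with 201 and 173, a log2 ratio of -0.21. This became -0.47 with the block median, -0.51 with the neighbours, -0.23 with the surface and -0.28 with the signal shift. The receptor kinases Ror1 and Ror2 were under it. Among secreted inhibitors the 1 of 6 above it was Dkkl1, a Dickkopf-like protein known from testis, with 340 and 397. Sfrp1, Sfrp4, Dkk2, Dkk3 and Wif1, which bind Wnt ligands or their receptors or are related to such proteins, lay between 24.6 and 60.1 on either array.

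Of 9 genes of the destruction complex and its transducers, 4 were above the threshold. Csnk2a2, a catalytic subunit of casein kinase 2, had 175 and 210, a log2 ratio of 0.26. Csnk1e, a casein kinase that phosphorylates pathway components, had 138 and 116, a log2 ratio of -0.26. Apc2, a relative of the scaffold Apc, had 129 and 117, a log2 ratio of -0.14. For its place in block E4 this became 0.30 with the block median, 0.06 with the neighbours and 0.28 with the surface, and -0.04 with the signal shift. Axin2 was the fourth. Beta-catenin itself, Ctnnb1, had 40.1 and 47.6, under the threshold on both arrays, as were Btrc, Frat1, Csnk2b and Ppp2r1a.

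Nuclear cofactors and targets completed the set. Hdac1, a histone deacetylase that TCF co-repressors recruit, had 557 untreated and 291 treated, 1.91-fold lower, a log2 ratio of -0.94. It lay between -1.08 and -0.80 after the adjustments by block median, neighbours, surface and signal shift. Ruvbl2, an ATPase that binds beta-catenin, had 113 and 90.6, a log2 ratio of -0.33. With the block median this became -0.03, with the neighbours or the surface -0.12 and with the signal shift -0.16. The corepressors Ctbp1, Ctbp2, Tle1 and Tle2 and the ATPase Ruvbl1 were under the threshold. Of 14 target genes 4 were above it. Birc5, the mitotic protein survivin, had 97.3 and 132, a log2 ratio of 0.44. It became 0.19 with the block median, 0.04 with the neighbours, 0.22 with the surface and 0.36 with the signal shift. Fosl1, an AP-1 subunit, had 310 and 289. Lgr5 and Axin2, given above, were the other two. Of the 4 detected targets 3 had a ratio under 1, among them Axin2 at the detection limit, beside 50.4% of all detected probes. The target list held Tcf7, Mmp7, Id2, Twist1, Fgf18, Tnfrsf11b, Tnfrsf19, Ccn1, Ccn4 and Ccn5 under the threshold.

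**Figure D5:**
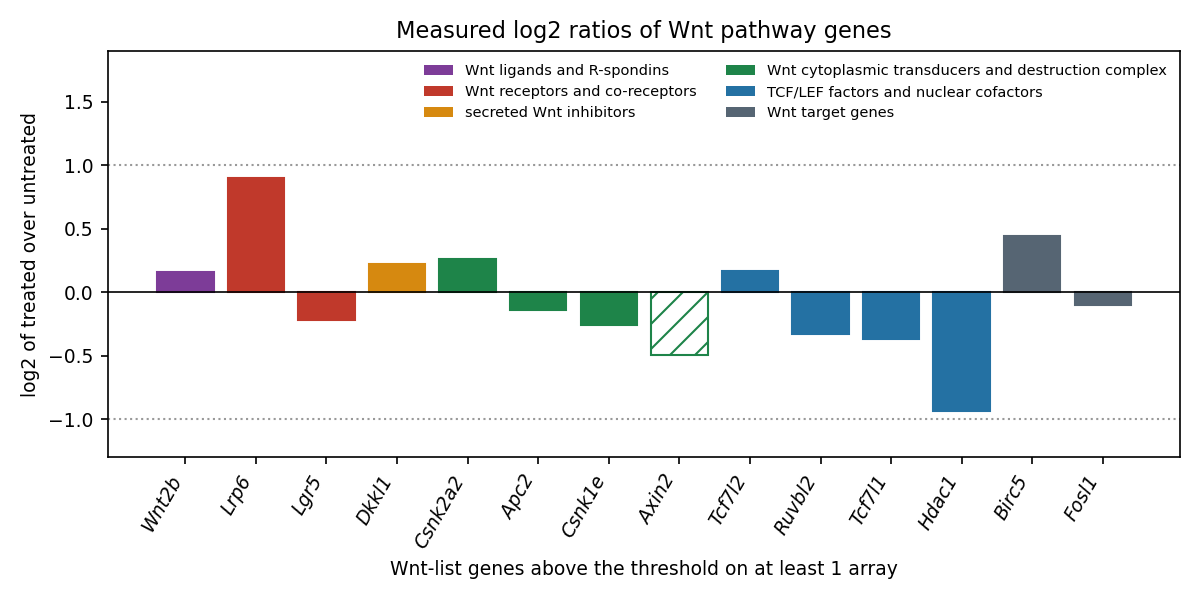
Measured log2 ratio of treated over untreated for the 14 detected Wnt-list genes, coloured by role, hatched where detected without TGF-beta1 only (Axin2), with dotted lines at 2-fold; bars start at 0 and have no error because each group held 1 sample. Lrp6 at 0.90 and Hdac1 at -0.94 lie furthest from 0, in opposite directions, and the others lie within 0.50 of 0.

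Genes with the nearest log2 ratio were named as a measure of likeness over the 2 arrays. For Lrp6 they were the tyrosine kinase Tec at 0.90 and the centrosome protein Cetn2 at 0.89, with 8 genes within 0.05. For Tcf7l1 the cytokine Tnfsf8 was among them at -0.37, and for Tcf7l2 they were the haem synthesis enzyme Urod and the neuronal adhesion protein Astn1, both at 0.17. For Axin2, among genes detected without TGF-beta1 only, they were the GABA receptor subunit Gabrb1 and the vesicle protein Vamp3, both at -0.49. With 42 genes within 0.05 of Tcf7l1 and 81 within 0.05 of Tcf7l2, a like ratio was common in the body of the distribution and rarer at the height of Lrp6.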

How the data were processed

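The authors deposited 1 linear spot intensity per probe and array, put through a normalization named global with the program Atlas Iris 1.01, per the file headers, which name the Atlas Glass Mouse 3.8 array. The sources used here do not give the background method, scanner or image software, and 3 treated intensities lay below 0. The deposited ratio was treated over untreated intensity, and 3754 of 3757 matched within 0.0001, while 3 had none. Spots, positions and accessions came from the workbook, whose 3774 ratios equalled those of the probe-wise ratio table row by row. The 17 control spots were left out. A symbol was found for 3597 probes through RefSeq accessions (GRCm38.p6, names only), and 160 had none. In the workbook 16 columns of per-sample values matched no sample label and were not used.

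From these, the log2 of treated over untreated intensity was computed without an offset (Python 3.11.15, numpy 2.4.6, pandas 2.3.3). A probe above 87.4, the brightest lambda control spot per the file headers, counted as detected. For a gene detected on 1 array, its bright signal was divided by its dim signal or by the lowest detected signal of that array, whichever was higher, to give a bound. With 1 sample per group there is no test and no p-value, and precision is limited by the number of arrays. Position adjustments by block median, neighbours and surface added back the median of all probes. The adjustment by detected spots added back the median of all detected spots. The signal shift added back the median difference of all dim spots. The scripts were tested on simulated data in which dim and bright spots of a block shifted alike. In D4 dim and detected spots had medians of -0.85 and -0.38, so that test cannot decide between the position adjustments. The 4 genes and the lists were chosen with earlier results of these data known. Named were the 4 genes, detected genes of the 6 Wnt lists, up to 3 detected genes of each further list, and the 2 genes nearest in log2 ratio to each of the 4. Undetected genes and the spots beside the 4 genes are named outside this rule, and some genes that it took are not reported here. Probe sequences were not used, so signal from related genes was not separated.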

Additional observations from a re-analysis of the deposited data

How the results depend on the processing

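Lrp6 was higher under all 11 alternatives, Tcf7l2 was higher and Axin2 lower under all 11, and Tcf7l1 was lower under 7 and higher under 4. For Tcf7l2 the log2 ratio was only 0.06 with loess and 0.04 with quantile normalization, where the median of the 795 genes was 0.05. The authors' deposited ratio, counted among the 11, is the quotient of the same intensities and could differ by rounding only. Division by the total signal or by the median of detected probes, also counted, moves every gene by the same amount. On intensities already normalized as a whole this amount was small, with Lrp6 at 0.89 and 0.91 beside 0.90. Division by total signal or by the median of detected probes, quantile normalization, loess with a span of 0.4 and the authors' deposited ratio moved none of the 4 genes by more than 0.20, the spread of the lambda spots. After subtraction of the block median, the log2 ratios were 0.67 for Lrp6, 0.25 for Tcf7l1, 0.79 for Tcf7l2 and -0.14 for Axin2, and 2 of the 3 genes detected on both arrays were at least 1.5-fold higher. With the neighbour median, Tcf7l1 had 0.70, Tcf7l2 0.89, Axin2 -0.033 and the difference of the TCF factors was 0.19, and 3 genes were at least 1.5-fold higher. With a local plane over the nearest 0.03 of the spots, on a grid of blocks assumed from their names, Tcf7l1 had 0.17, Tcf7l2 0.80 and Axin2 -0.084, and 2 were at least 1.5-fold higher. The share of all 795 genes at least 1.5-fold higher was not counted under these position adjustments. Members past 1.5-fold with the block median, neighbours or surface ranked between 26 and 54 from the highest. An offset of 96.7 took Axin2 to -0.21. There were 2 settings chosen after seeing the data. The block median of detected spots gave 0.54 for Lrp6, 0.0029 for Tcf7l1 and 0.54 for Tcf7l2. With it 0 were at least 1.5-fold higher, and its detected spots included some that passed the threshold on 1 array only. The block signal shift gave -0.27 for Axin2. The 6 Wnt lists held 16 genes higher and 28 lower without a filter on dim probes, which lets in the 30 undetected ones. All probes without this filter had a median log2 ratio of -0.10, so lower ratios were the more common there too. Their split by direction was not counted. Of their genes detected on both arrays, 2 passed 1.5-fold where 0 passed 2-fold, beside the shares of all such genes given above. The cause of these moves was not tested. No paired analysis was possible because each group held 1 sample. Leaving out a replicate was not possible for the same reason. Axin2, 0.302 units over the threshold, is limited by its signal over background.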

Other observations

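The branch of Wnt signalling that works through planar cell polarity and calcium had 5 genes on the array, of which 0 were above the threshold, where 26.5% of all probes were. Camk2a, a calcium-dependent kinase, came nearest with 80.2 untreated and 80.3 treated, while Rhoa had 65.3 and 59.9, Mapk9 50.1 and 56.4, Mapk8 28.8 and 23.0 and Celsr1 29.5 and 13.6. At these signals a difference was not detectable.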
